A study of Mus musculus with 96 samples.

Results

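The renin angiotensin system was followed along the mouse nephron through 9 genes, Ren1, Agt, Ace, Agtr1a, Agtr1b, Mas1, Enpep, Mme and Atp6ap2, taken by their symbols from the 54532 genes of the deposited expression table. Transcript levels were measured by RNA-seq in glomeruli and in 14 tubule segments dissected from the kidneys of male C57BL/6 mice aged 6 to 8 weeks, kept on ordinary chow, with no treatment or genetic change named for any group. The 93 samples came from 53 combinations of mouse and segment, called mice below, and pieces of the same mouse and segment were averaged first. There were 5 mice in PTS2, CTAL and CCD, 4 in ATL and OMCD, and 3 in each of the other 10 groups. Levels are in TPM, a share of each library's transcripts scaled by transcript length, so that genes can be set beside each other.

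The groups follow the path of the urine. The proximal tubule was sampled at its beginning (PTS1), in the straight part within the medullary rays of the cortex (PTS2) and, as PTS3, at its end in the outer stripe. Thin limbs followed: DTL1 is the descending limb of short loops, DTL2 and DTL3 are the stretches that long descending limbs have in the outer and the inner medulla, and ATL is the thin ascending limb. The thick ascending limb was taken in the medulla (MTAL) and in the cortex (CTAL), and after it came the distal convoluted tubule, DCT, and the connecting tubule, CNT. The collecting duct was sampled in the cortex (CCD), in the outer medulla (OMCD) and in the inner medulla (IMCD).

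Renin, the product of Ren1, cuts angiotensinogen (Agt) to angiotensin I, and angiotensin-converting enzyme (Ace) trims this to angiotensin II, which raises blood pressure and retains sodium through the type 1 receptors Agtr1a and Agtr1b. Aminopeptidase A (Enpep) and neprilysin (Mme) are membrane peptidases that shorten angiotensin peptides, and Mas1 is a receptor for one of the shorter products. Atp6ap2, also called the (pro)renin receptor, is an accessory subunit of the vacuolar proton pump that can bind renin and its precursor. In the kidney, renin is known to be released by granular cells in the wall of the afferent arteriole, just before the glomerulus, while angiotensinogen is made by proximal tubule cells as well as by the liver.

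The sequences just upstream of the transcription start are shown for 4 members that stood at the extremes of the levels reported here: the renin gene, found almost entirely in glomeruli; its substrate Agt and the converting enzyme Ace, both highest past the first proximal segment; and Atp6ap2, found in every mouse. Promoters were available from RefSeq (GRCm38.p6) for 8 of the 9 members. Each line gives the 100 bases before the start, 5′ to 3′ on the gene's strand, and capitals mark every TATAAA, the core of a TATA box, and every GGGCGG, the core of a GC box, on either strand (TTTATA and CCGCCC on the reverse).
Ren1 (chr1:133350574-133350673, plus strand): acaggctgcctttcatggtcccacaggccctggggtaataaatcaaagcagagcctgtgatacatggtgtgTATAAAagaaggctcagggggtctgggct
Agt (chr8:124569707-124569806, minus strand): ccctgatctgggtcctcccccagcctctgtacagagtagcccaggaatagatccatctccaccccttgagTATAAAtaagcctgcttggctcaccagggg
Ace (chr11:105967848-105967947, plus strand): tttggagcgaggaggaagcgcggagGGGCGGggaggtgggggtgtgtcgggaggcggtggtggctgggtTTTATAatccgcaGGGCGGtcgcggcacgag
Atp6ap2 (chrX:12587659-12587758, plus strand): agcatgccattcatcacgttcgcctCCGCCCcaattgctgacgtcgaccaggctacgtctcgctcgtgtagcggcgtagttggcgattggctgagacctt

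TATAAA began 29 bases before the start of Ren1 and 30 bases before that of Agt, and on the reverse strand its match began 31 bases before the start of Ace. Atp6ap2 held no TATAAA in its 300 base promoter window, which runs from 250 bases before to 50 after the start, and held 2 matches to GGGCGG. Of the 32851 promoters in the table, 13.6% held TATAAA and 35.7% held GGGCGG, on either strand, and 670 held both, as the Ace promoter shown did; a second RefSeq promoter of Ace, further along the gene, held neither. These matches describe the letters only.

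Markers were checked for the glomerulus, the proximal tubule and, with 3 genes chosen after the data were seen, the thick limb, DCT and the ducts. The 6 podocyte genes checked summed to between 9568 and 11482 TPM in glomeruli and to at most 97.1 TPM elsewhere, and the 6 proximal tubule genes summed to between 5294 and 22534 TPM in PTS1, PTS2 and PTS3 and to at most 443 TPM in the other groups. Slc12a1, the sodium-potassium-chloride carrier of the thick limb, was at 3525 TPM or more in MTAL and CTAL mice and at most 72.3 TPM elsewhere. Slc12a3, the sodium-chloride carrier of DCT, was at 5528 to 5925 TPM in DCT and at most 14.7 TPM elsewhere. Aqp2, the water channel of the ducts, was at 5056 TPM or more in CNT, CCD, OMCD and IMCD and at most 152 TPM elsewhere. No marker of the thin limbs was checked. In PTS3, Slc5a2 and Slc13a3 of these 6 were listed at 0 in every mouse. Transcripts of blood vessel lining were found in every group, with at least 6 of 8 endothelial genes averaging 1 TPM or more. Their sums were highest in glomeruli (6114 to 6387 TPM), DTL1 (3342 to 4509 TPM), DTL2 (1314 to 2359 TPM) and DTL3 (801 to 1880 TPM), against 38.8 to 629 TPM in the remaining groups, ATL included. Low-level detection was broader in the same groups, as 260 to 861 of the 1740 odorant and vomeronasal receptor genes reached 1 TPM in the mice of DTL1, DTL2 and DTL3, 372 to 840 in glomeruli and 17 to 659 in ATL, against 69 to 239 in OMCD and at most 27 in the other groups. ATL split into mice 4 and 6, with 576 and 659 such genes, and mice 2 and 3, with 29 and 17, and some members differed along this split. Mme was at 0.18 and 0.73 TPM in ATL mice 4 and 6 against 3.86 and 4.26 TPM in mice 2 and 3, and Ace at 1.26 and 1.65 TPM against 0 in both.

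Of the 9 genes, 8 passed the filter of at least 1 TPM in at least 3 mice, and all 8 differed among the 15 groups (limma F-test, Benjamini-Hochberg adjusted over 33793 genes). The adjusted p ran from 1.46e-35 for Enpep to 3.12e-10 for Mas1, in a table where 93.9% of tested genes differed. Agtr1b, the ninth member, did not pass and was not tested in the fit. A gene was taken to mark a group when it was higher there than in each of the other 14, with an adjusted p under 0.05 and a log2 difference of at least 1 from the next group. By that rule 4 of the 8 marked a group, against 8.8% of tested genes: Ren1, Enpep and Agtr1a marked the glomerulus, as 3.22% of genes did, and Ace marked PTS2, as 0.257% did. All log2 differences below are between means of log2(TPM + 1), which understates the change of genes with low TPM.

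Renin transcripts were concentrated in the glomerular samples, which can carry the end of the afferent arteriole where it stays attached. Ren1 stood at 926.5, 1189 and 1712 TPM in the 3 glomerular mice, a mean of 1276 ± 400 TPM (SD, n = 3). Of the 50 tubule mice the highest were OMCD mouse 3, at 33.8 TPM, and CTAL mouse 5, at 7.37 TPM, so the glomerular mice did not overlap with them. On the log2 scale Ren1 was higher in the glomerulus than in CTAL, the next group, by 8.66 (SE 0.42, adjusted p = 3.51e-20). The 8 genes checked for renin cells and the afferent arteriole were all at 1 TPM or more in glomeruli. They summed to 739 to 959 TPM there and to at most 27.9 TPM in any tubule mouse. Among them were Akr1b7, an aldo-keto reductase found in renin cells, at 99.6 ± 33.1 TPM (SD, n = 3), and Gja5, a gap junction protein of arteriolar cells, at 284 ± 18.9 TPM (SD, n = 3). How far other glomerular cells entered these sums was not tested. The part of the attached arteriole in the Ren1 level was not tested, and in such bulk samples more cells of a type and more RNA per cell cannot be told apart.

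Low renin values were found in parts of the tubule. In CTAL, the limb that returns to its own glomerulus, the 5 mice had 1.5, 0.39, 1.99, 2.39 and 7.37 TPM of Ren1. DCT, which follows it, had 3.44, 1.22 and 0.45 TPM, and OMCD had 1.22, 1.61, 33.8 and 0.065 TPM. The third OMCD mouse stood apart, and its 2 pieces did not match: Ren1 was at 67.2 TPM in piece a and at 0.4 TPM in piece b. Single mice of DTL2 and DTL3 lay in the same range, at 2.755 and 2.81 TPM, where the other mice of these groups had 0 to 0.09 TPM. Ren1 was listed at 0 in all mice of PTS1 and PTS3, and did not exceed 0.92 TPM in PTS2, 0.76 TPM in CNT, 0.515 TPM in DTL1, 0.49 TPM in CCD, 0.21 TPM in ATL or 0.037 TPM in MTAL and IMCD.

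Ren1 was lower in MTAL than in CTAL by a log2 difference of -1.49 (adjusted p = 0.0204), a call lost on leaving out CTAL mouse 5 (-1.25, adjusted p = 0.086). Without any of the 3 MTAL mice the difference stayed between -1.51 and -1.49, at adjusted p of 0.0593 to 0.0899, and with pieces averaged before the log it was -1.63 (adjusted p = 0.091). With a pseudocount of 5 it came to -0.52 (adjusted p = 0.273). It was called higher in OMCD than in CCD (-1.20 for CCD minus OMCD) and than in IMCD (1.41), and neither call held without OMCD mouse 3, where the differences were -0.58 (adjusted p = 0.243) and 0.78 (adjusted p = 0.143). With a pseudocount of 5 they were -0.62 and 0.67, and with the mouse as a random effect the first was -1.22 (adjusted p = 0.051). In the 5 CTAL mice the arteriole genes summed to between 3 and 10.6 TPM, the highest sum being that of mouse 5, and in OMCD mouse 3 they summed to 6.46 TPM within a range of 3.51 to 8.03 TPM. In that mouse the 8 arteriole genes summed to 10.2 TPM in piece a and 2.75 TPM in piece b, 7 of 8 being higher in piece a. Of these Rgs5 (0.53 and 0.51 TPM) and Myh11 (0.46 and 0.40 TPM) differed little, and Gja4 was lower in piece a (0.24 and 0.30 TPM). The part of arteriole fragments in these values was not tested. The genes most like Ren1 over the 53 mice were Cd248, a surface protein of stromal cells (r = 0.959), and Foxd2, a transcription factor (r = 0.951), both highest in the glomerulus. By ranks (Spearman's rho) they stood at 0.684 and 0.504, and neither was among the 2 genes most like Ren1. In the order of Ren1 group means, 1 of the 14 steps between adjacent groups passed the test, that from the glomerulus down.

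Angiotensinogen, the substrate of renin, was abundant in the later proximal tubule and, past it, in the outer medullary descending limb of long loops, where its mean TPM was highest. Agt was at 609.6, 768.3 and 513.2 TPM in DTL2, at 248.4, 331.4, 336.1, 350.9 and 311.5 TPM in PTS2, and at 229.9, 178.2 and 243.2 TPM in PTS3. It was far lower in PTS1, with 12.0, 12.5 and 11.4 TPM, and in DTL1, the descending limb of short loops, with 31.6, 14.4 and 26.4 TPM. DTL3 mice were spread, with 12.1, 0.52 and 6.89 TPM, and Agt did not exceed 1.2 TPM in the glomerulus and in every mouse from ATL to IMCD.

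The mice of DTL2 lay above all PTS2 mice, but the difference of 0.99 (SE 0.31) on the log2 scale did not pass as a mark of DTL2 (adjusted p = 0.569), nor, at an adjusted p of 0.0059, reach the size of 1 between the pair. It came to -0.08 (SE 0.29), with PTS2 first, after each mouse was rescaled by its median ratio to the others, and to 1.25 (SE 0.31) after quantile normalization. Agt was higher in PTS2 than in PTS1 by 4.60, higher in DTL2 than in DTL1 by 4.71, and higher in DTL2 than in DTL3 by 6.85, all called. PTS3 was lower than DTL2 by a difference of -1.53 (adjusted p = 0.000237), which came to -0.30 (adjusted p = 0.441) after the same rescaling. The 6 proximal tubule genes summed to 19.7 to 135 TPM in DTL2, against 18262 to 22534 TPM in PTS2 and 5294 to 7734 TPM in PTS3. In PTS3, 2 of these genes were at 0 in every mouse. The part of proximal cells in Agt of DTL2 was not tested. The genes whose log2 levels ran most like Agt over the 53 mice were Slc6a18, an amino acid transporter (Pearson's r = 0.974), and Cldn2, a claudin of leaky epithelia (r = 0.947), both also highest in mean TPM in DTL2 and next in PTS2; the points share libraries and segments, and no p is given.

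Angiotensin-converting enzyme was a transcript of the straight proximal tubule and all but missing from PTS1, the beginning of the proximal tubule. Ace was at 97.7, 117.9, 104.2, 124.0 and 90.4 TPM in PTS2 and at 45.7, 24.3 and 37.1 TPM in PTS3, while PTS1 had 0.67, 0.28 and 0.33 TPM. The groups did not overlap, and Ace was lower in PTS1 than in PTS2 by a log2 difference of -6.24 (SE 0.28). PTS2 was higher than PTS3, the next group, by 1.59 (SE 0.28, adjusted p = 0.000276), a mark lost when the pseudocount was 0.1 instead of 1 (1.62, adjusted p = 1). Glomeruli had 5.1, 6.25 and 6.1 TPM, DTL1 7.69, 1.84 and 4.12 TPM, and DTL2 3.05, 0.84 and 2.29 TPM, levels that overlapped from glomerulus to DTL1 and from DTL1 to DTL2.

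From DTL3 to OMCD no mouse had more than 1.65 TPM of Ace, and the IMCD mice had 0.74, 1.46 and 2.99 TPM. The IMCD level was called above that of OMCD (-1.09 for OMCD minus IMCD, adjusted p = 0.00313), and was not without IMCD mouse 3 (-0.76, adjusted p = 0.0749) or with a pseudocount of 5 (-0.35, adjusted p = 0.0655). Ace is also an enzyme of blood vessel lining, and the endothelial sums in the glomerular and thin limb libraries are those given above; their part in the low Ace levels there was not tested. The genes most like Ace were Ido2, a tryptophan-degrading dioxygenase (r = 0.964), and Scd1, a fatty acid desaturase (r = 0.962), both highest in PTS2 and next in PTS3.

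**Figure D1:**
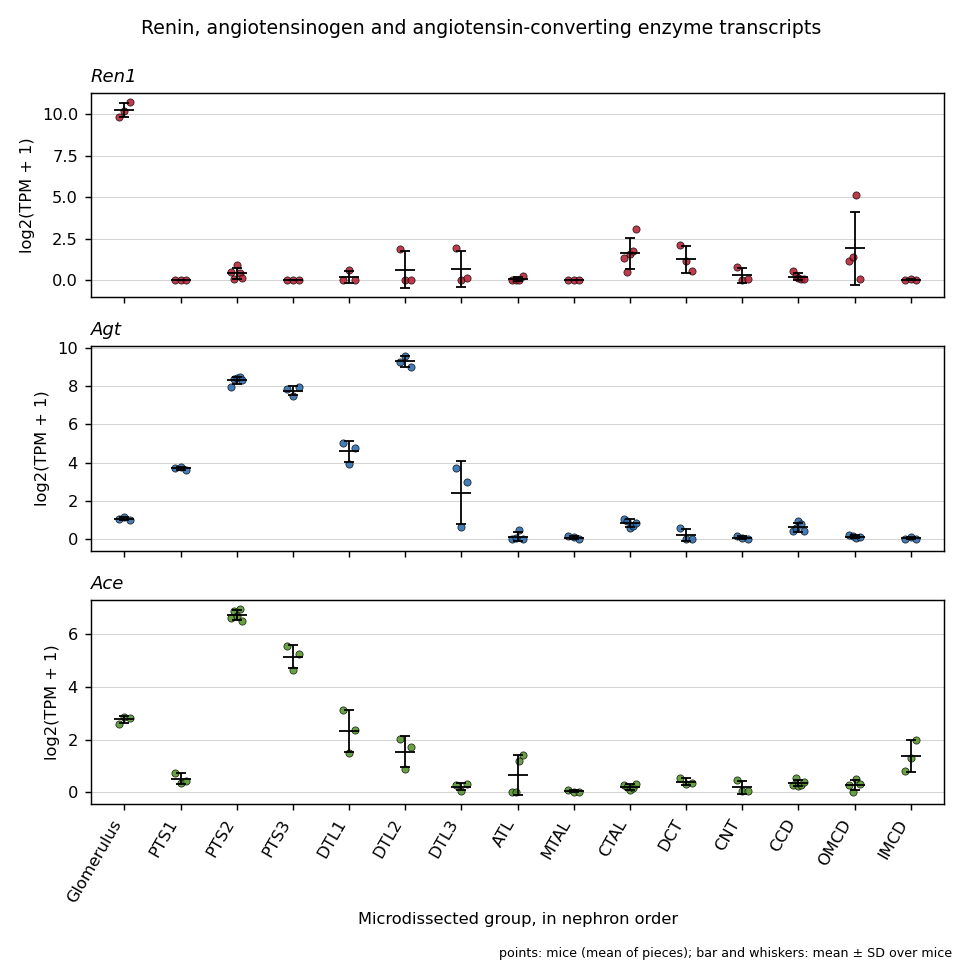
Levels of Ren1, Agt and Ace as log2(TPM + 1) in each mouse (points) of the 15 groups along the nephron, with mean and SD over mice. Ren1 stands high in the glomerulus alone, with 1 OMCD mouse at 33.8 TPM, Agt peaks in PTS2, PTS3 and DTL2, and Ace in PTS2 and PTS3.

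Enpep, aminopeptidase A, was at its highest in glomeruli and was interrupted at the end of the proximal tubule. Glomeruli had 1251, 1345 and 1425 TPM of Enpep, and the next group, DTL2, had 137, 149 and 127 TPM. The groups did not overlap, and the margin was 3.29 (SE 0.23, adjusted p = 1.39e-15) on the log2 scale. PTS1 had 59.2, 48.9 and 59.1 TPM and PTS2 67.2, 61.8, 69.4, 67.9 and 51.01 TPM, but PTS3 had 1.07, 1.36 and 0.40 TPM, the lowest group mean of all. The IMCD mice, at 0.33 to 2.82 TPM, overlapped with those of PTS3. Levels were high again in the descending limbs, with 114, 129 and 80.9 TPM in DTL1 and 95.0, 66.0 and 90.5 TPM in DTL3. Enpep in PTS3 was called below the segment before it, by 5.18, and below both segments that follow it, with differences of -5.93 to DTL1 and -6.29 to DTL2.

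A smaller step lay in the distal nephron. Enpep was at 25.7, 21.7 and 21.9 TPM in DCT, against 2.495 to 4.85 TPM over the CTAL mice before it and 5.13, 3.68 and 3.73 TPM in CNT after it. DCT did not overlap with either neighbour and was higher than CTAL by 2.41 and than CNT by 2.24 on the log2 scale. OMCD mice had 10.2, 11.8, 10.9 and 12.8 TPM, above the 5 CCD mice, which did not exceed 4.99 TPM, and above the 3 IMCD mice, which had 0.33, 1.15 and 2.82 TPM. Endothelial sums were high in the glomerulus and in the same thin limbs where Enpep was high, and were 55.7 to 133 TPM in PTS2 and 213 to 517 TPM in DCT; the part of vessels in Enpep of the thin limbs was not tested. The closest profiles, Amot, an angiomotin (r = 0.850), and Palld, an actin-bundling protein (r = 0.849), were also highest in the glomerulus.

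Mme, neprilysin, was high in most groups, with gaps in PTS1, DTL3, ATL and IMCD. OMCD had the highest mean, with 172, 129, 174 and 239 TPM, followed by the glomerulus with 109, 150 and 123 TPM. These overlapped, and OMCD was not a mark (margin 0.47, SE 0.33, adjusted p = 1). CCD (106 to 131 TPM), CTAL (95.2 to 122 TPM), CNT (91.0 to 110 TPM), DTL1 (67.8 to 129 TPM) and DTL2 (68.6 to 87.8 TPM) followed closely, and in the order of Mme means 1 of the 14 steps passed the test, that from PTS3 down to PTS1. In these gaps PTS1 was at 2.59, 3.03 and 2.22 TPM, DTL3 at 2.33, 0 and 2.57 TPM, ATL at 0.18 to 4.26 TPM, and IMCD, where Enpep was low too, at 0.44, 0.73 and 0.41 TPM.

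Mme was lower in PTS1 than in PTS2 by -4.03, higher in DTL2 than in DTL3 by 5.09, lower in ATL than in MTAL by -3.82 and higher in OMCD than in IMCD by 6.87, and in each of these pairs the mice did not overlap. It was at 4.26 TPM or below in the mice of DTL3, ATL and IMCD, the segments of the inner medulla, and at 68.6 TPM or more in those of DTL2 and OMCD, which precede DTL3 and IMCD in the outer medulla. PTS3 was called below DTL1 (-1.60) and DTL2 (-1.31), and neither call held after median ratio rescaling (-0.24 and -0.10). Steps of CTAL above DCT (1.23) and of DCT below CNT (-1.16) were called as well, and both missed the threshold at similar size with a pseudocount of 0.1 (1.25 and -1.18, adjusted p = 0.299 and 0.396) and without DCT mouse 2 (1.11 and -1.04, adjusted p = 0.0689 and 0.121). The second was also lost without CNT mouse 1 or 2 (-1.15 and -1.10, adjusted p = 0.0698 and 0.0864), after median ratio rescaling (-0.81, adjusted p = 0.128) and after quantile normalization (-0.89, adjusted p = 0.138). Among the genes most like Mme, Ubxn2a, a ubiquitin-related adaptor (r = 0.819), was highest in CNT, and Nfic, a transcription factor (r = 0.804), in the glomerulus. Across the proximal tubule the order of the peptidases changed, Enpep minus Mme being 3.97 ± 0.31 log2 units in PTS1 (SD, n = 3) and -4.06 ± 0.54 in PTS3 (SD, n = 3).

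**Figure D2:**
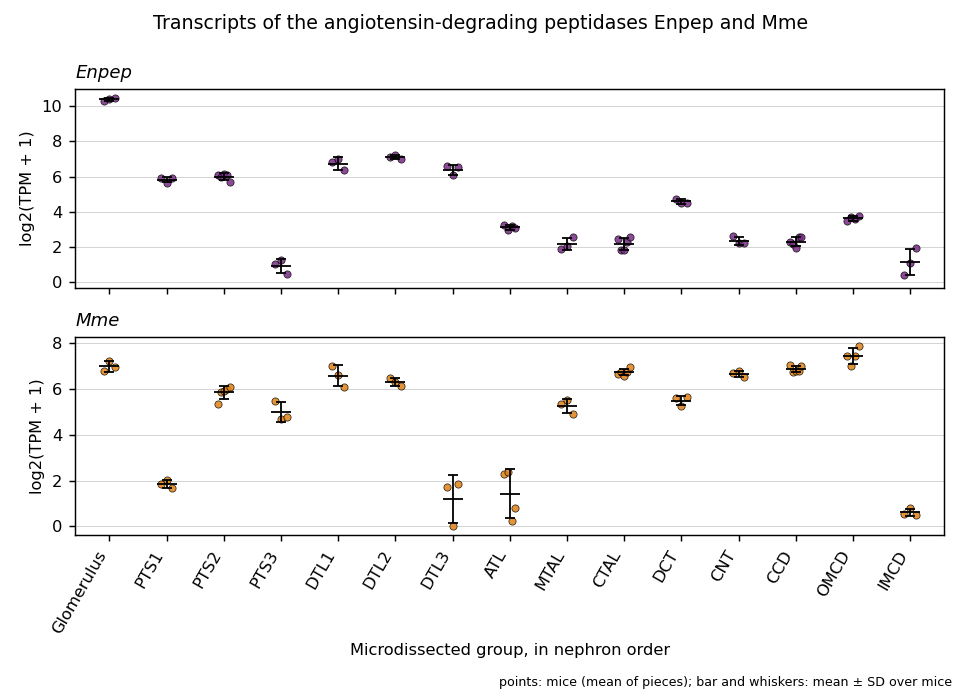
Levels of Enpep and Mme as log2(TPM + 1) in each mouse (points) of the 15 groups along the nephron, with mean and SD over mice. Enpep drops to 0.40 to 1.36 TPM in PTS3 between high groups, and Mme is low in PTS1, DTL3, ATL and IMCD.

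The type 1 receptor transcripts were those of Agtr1a, and they declined stepwise from the glomerulus through the proximal tubule. Agtr1a was at 393, 400 and 394 TPM in glomeruli, at 54.7, 48.7 and 51.1 TPM in PTS1, at 22.4, 21.7, 22.4, 25.2 and 21.7 TPM in PTS2 and at 6.00, 8.85 and 8.84 TPM in PTS3. No group overlapped with the next, and the steps were 2.92 (SE 0.38, adjusted p = 9.885e-09), 1.15 (SE 0.34, adjusted p = 0.0116) and 1.46 (SE 0.34, adjusted p = 0.00162) on the log2 scale. The step from PTS1 to PTS2 missed the threshold without PTS1 mouse 1 (1.11, adjusted p = 0.0521). With a pseudocount of 0.1 both proximal steps stayed as large, 1.18 and 1.57, with larger errors, and missed it (adjusted p = 0.275 and 0.289). The step from PTS2 to PTS3 came to 0.96, under 1, after quantile normalization. Beyond, Agtr1a was at 2.48 to 4.56 TPM in DTL1, 3.05 to 4.48 TPM in DTL2 and 1.31 to 2.76 TPM in CTAL, and its mean was at most 1.13 TPM in each of the other 8 groups.

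In glomeruli, Agtr1a is known as a receptor of mesangial and arteriolar muscle cells, and the 8 mesangial and stromal genes summed to 808 to 1079 TPM there, with 7 of 8 at 1 TPM or more; the part of each cell type in the Agtr1a level was not tested. The same list summed to at most 4.4 TPM in the mice of PTS1, PTS2 and PTS3, where Agtr1a was next highest. Agtr1b, the other type 1 receptor of rodents, did not exceed 0.73 TPM in any mouse and was listed at 0 in 41 of 53. Glomeruli had 0.35, 0.15 and 0.6 TPM of it in the same libraries. The genes most like Agtr1a were Rhpn1 (r = 0.927) and Ildr2, a membrane protein (r = 0.921), both highest in the glomerulus.

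Mas1 was scarce everywhere, its highest value in any mouse being 5.24 TPM. The PTS2 mice had 4.55, 5.24, 3.27, 3.84 and 2.44 TPM of Mas1, DTL1 had 2.24, 4.04 and 3.79 TPM, DTL3 2.21, 2.62 and 3.82 TPM and IMCD 3.18, 1.14 and 2.85 TPM, and these groups overlapped. It was listed at 0 in the 3 MTAL mice and did not exceed 0.255 TPM in any mouse of CTAL, DCT or CNT. In the order of Mas1 means 0 of the 14 steps passed the limma test, 0 having an unadjusted p under 0.05, although 42 of all pairs of groups passed. PTS2 was called above PTS3 by 1.84 (adjusted p = 1.15e-05), and the value was 0.71 with a pseudocount of 5. The direction of PTS3 against DTL1, called at -1.69, turned to 0.62 (adjusted p = 0.0611) under quantile normalization; DTL1 was the group with 704 to 861 odorant and vomeronasal receptor genes at 1 TPM or more.

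Atp6ap2 was the only member at or above 1 TPM in all 53 mice. It was highest in the connecting tubule and cortical collecting duct, which hold intercalated cells, as OMCD does. No marker of intercalated cells was checked, and their part in the Atp6ap2 level was not tested. Atp6ap2 was at 894, 805 and 877 TPM in CNT and at 811, 801, 713, 781 and 816 TPM in CCD, which overlapped. OMCD followed with 405, 349, 368 and 433 TPM and DCT with 276, 290 and 298 TPM. The lowest groups were PTS2, with 57.4, 66.4, 64.6, 63.0 and 64.4 TPM, and PTS3, with 60.8, 51.4 and 71.7 TPM, while PTS1 had 161, 157 and 139 TPM. On the log2 scale the step up from DCT to CNT was a difference of -1.58 (adjusted p = 1.46e-10), CCD was above OMCD by 1.02, and PTS1 was above PTS2 by 1.26; the value for CCD was under the threshold of 1 without OMCD mouse 2 or 3 (0.96 and 0.99), after quantile normalization (0.87) and with all samples entered and the mouse as a random effect (0.99). Enpp5, a phosphodiesterase family member (r = 0.923), and Syn2, a synapsin (r = 0.907), ran most like Atp6ap2, both highest in CNT and next in CCD.

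**Figure D3:**
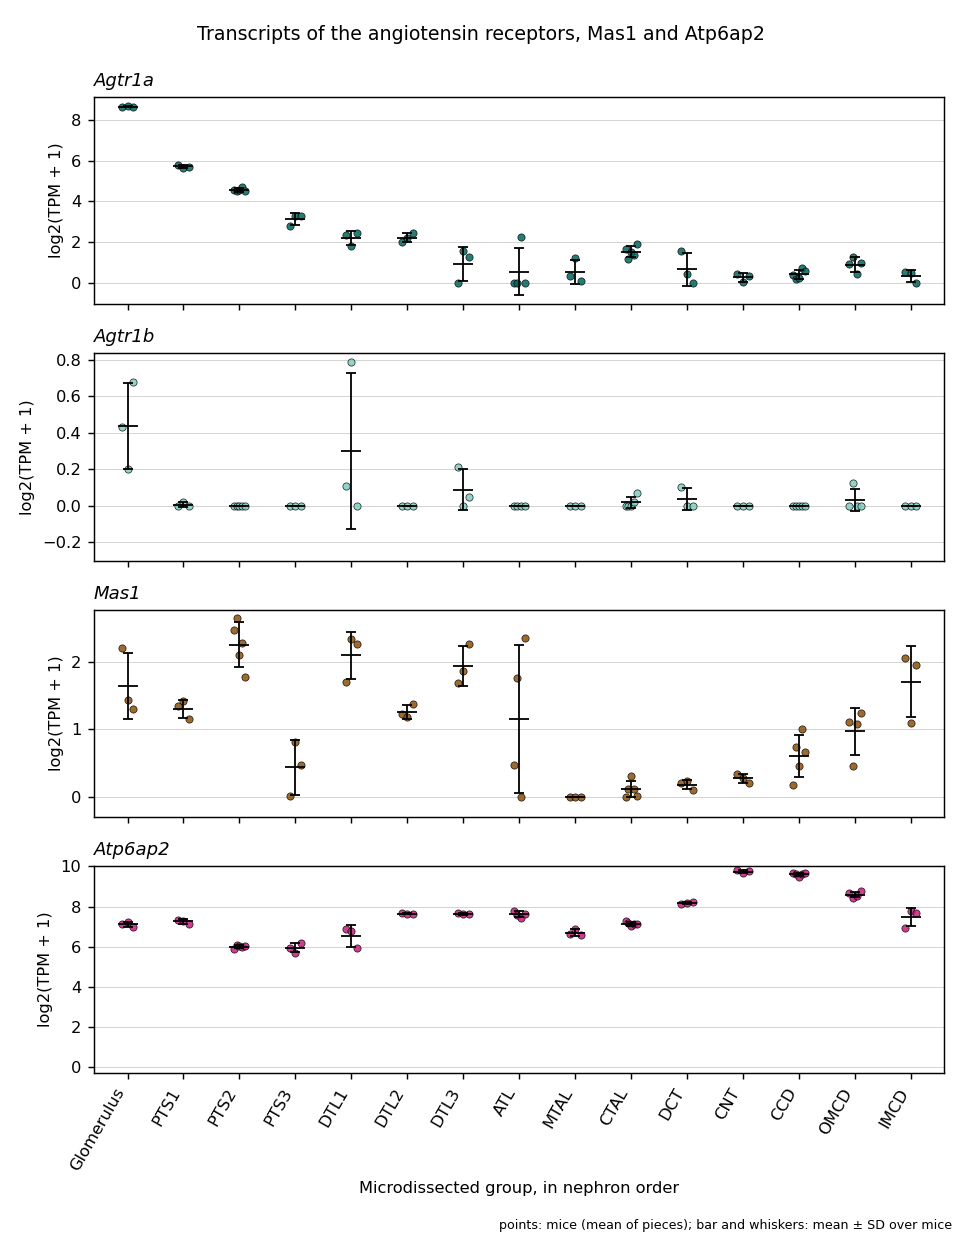
Levels of Agtr1a, Agtr1b, Mas1 and Atp6ap2 as log2(TPM + 1) in each mouse (points) of the 15 groups, with mean and SD over mice, each panel on its own axis. Agtr1a falls from the glomerulus to PTS3, Agtr1b stays at or below 0.73 TPM, Mas1 at or below 5.24 TPM, and Atp6ap2 is highest in CNT and CCD.

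Whether the system belonged to the proximal tubule as a whole was tested by setting PTS1, PTS2 and PTS3 against the other 11 tubule segments, each group with the same weight. The members went both ways: Agt was higher in the proximal segments by 4.91 (SE 0.15), Agtr1a by 3.52 (SE 0.16) and Ace by 3.46 (SE 0.13), and Atp6ap2 was lower, at -1.50 (SE 0.07). These were 3 members called higher and 1 called lower of 8 tested, in a comparison where 4.02% of tested genes were called higher and 19.8% lower. Mme at -0.74, Enpep and Mas1 at 0.42 each and Ren1 at -0.40 did not pass, the adjusted p of the first 3 being 4.05e-05, 0.00031 and 0.0115 with a log2 difference under 1. The median of the 8 members was 0.42 and that of all tested genes -0.41.

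That median moved with the scaling, to -0.22 after median ratio rescaling and -0.04 after quantile normalization, and the genes called higher then made up 49.2% and 52.7% of calls instead of 16.9%. Agt, Agtr1a and Ace were called higher under both, whereas Atp6ap2 came to -0.59 after median ratio rescaling, under the threshold of 1, where Enpep came to 1.17. Under quantile normalization Mas1 came to 1.28.

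Set against the 14 tubule segments, the glomerulus was higher for 5 members and lower for 1 of 8 tested, where 31.6% of tested genes were called higher and 3.94% lower. Ren1 was higher by 9.72 (SE 0.35), Agtr1a by 6.94 (SE 0.28), Enpep by 6.52 (SE 0.17), Mme by 2.19 (SE 0.26) and Ace by 1.35 (SE 0.23), and Agt was lower, at -1.70 (SE 0.25). For Ace the mean TPM went the other way, 5.82 in glomeruli and 10.95 over the tubule segments, since the test averages log2 levels over segments of which most had little Ace. The renin gene and its substrate were at opposite ends, with 1276 TPM of Ren1 and 1.1 TPM of Agt in glomeruli and 0.376 TPM of Ren1 and 316 TPM of Agt in PTS2. Mas1 at 0.60 and Atp6ap2 at -0.46 did not pass the size required. With a pseudocount of 0.1 Mas1 was called higher, at 1.48 (adjusted p = 0.0126). The median of all genes was 0.69 here, 0.43 after median ratio rescaling and -0.03 after quantile normalization, with genes called higher at 88.9%, 72.9% and 48.4% of calls. Ace came to 0.83 under the first rescaling, to 0.21 (adjusted p = 0.413) under the second and to 0.40 with a pseudocount of 5. Ren1, Agtr1a, Enpep and Mme stayed called higher and Agt lower under both rescalings. Atp6ap2 came to -1.03 (adjusted p = 9.97e-12) under the first, and was then called lower.

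Along the nephron, the members changed at many of the boundaries between neighbouring segments. Of 120 tests, 8 members at 15 boundaries, 53 passed, against 19.8% of tests over all genes at the same boundaries. Mme passed at 10 of the 15 boundaries, Enpep at 9, Agt, Ace and Atp6ap2 at 7 each, Agtr1a at 5, and Ren1 and Mas1 at 4 each. The boundaries on both sides of PTS2 were among those where several members changed: 5 of 8 between PTS1 and PTS2, where 9.57% of genes were called, and 4 of 8 between PTS2 and PTS3, where 4.7% were. All 4, Ace, Enpep, Agtr1a and Mas1, were higher in PTS2, as 3.94% of genes were called. Passing from PTS3 to DTL2, 6 of 8 members changed (background 40.0%), Ace and Agtr1a being higher in PTS3 and Agt, Enpep, Mme and Atp6ap2 higher in DTL2. After median ratio rescaling Agt, Mme and Atp6ap2 no longer passed there (-0.30, -0.10 and -0.50). From PTS3 to DTL1 it was 5 of 8 (65.5%), from OMCD to IMCD 5 of 8 (18.6%), and from DTL2 to DTL3 4 of 8 (9.58%), Agt, Ace, Mme and Agtr1a, each higher in DTL2, as 3.5% of genes were called. The glomerulus differed from PTS1 in 6 of 8 (51.9%). Some calls near the threshold missed it with 1 mouse fewer: Agtr1a from PTS3 to DTL2 (1.06) without PTS3 mouse 2 or 3 or DTL2 mouse 2 (0.96 to 0.97, adjusted p 0.0572 to 0.0597), Agtr1a from DTL2 to DTL3 (1.12) without DTL3 mouse 1 (0.66, adjusted p = 0.286) or DTL2 mouse 1 or 3 (1.142 and 1.001, adjusted p = 0.0679 and 0.115), and Atp6ap2 from OMCD to IMCD (1.13) without IMCD mouse 1 (0.87).

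At the boundaries from CTAL to OMCD the calls were 3 of 8 members between CTAL and DCT (4.35% of genes), 3 of 8 between DCT and CNT (5.22%), in both cases Enpep, Mme and Atp6ap2. Between CCD and OMCD it was 3 of 8 (12.1%). Between CNT and CCD, 0 of 8 members were called by limma, and 0 had an unadjusted p under 0.05, where 1.12% of genes were called. The remaining boundaries had 3 of 8 between DTL1 and DTL2 (28.2%), and 2 of 8 each from DTL3 to ATL (14.6%), ATL to MTAL (28.1%) and MTAL to CTAL (3.15%). Among these, Atp6ap2 from DTL1 to DTL2 (-1.11) came to -0.80 without DTL1 mouse 5, and Mas1 from ATL to MTAL (1.15) to 0.94 and 0.75 without ATL mouse 3 or 6. Mas1 from DTL1 to DTL2 (1.06) came to between 0.94 and 0.99 without DTL1 mouse 3 or 5 or DTL2 mouse 2, to 0.41 with a pseudocount of 5, to 0.82 after median ratio rescaling and to 0.07 (adjusted p = 0.92) after quantile normalization. Between all pairs of the 15 groups, 480 of 840 member tests passed, against 27.9% of tests over all genes.

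Other boundary calls ended under a rescaling or another pseudocount. After median ratio rescaling this held for Atp6ap2 from OMCD to IMCD (0.79). After quantile normalization it held for Ace from glomerulus to PTS1 (0.95) and from DTL2 to DTL3 (0.80), for Mas1 from ATL to MTAL (0.85), for Mme from PTS3 to DTL1 (-0.76) and to DTL2 (-0.53), and for Enpep from CCD to OMCD (-0.88). It also held for Ren1 from CCD to OMCD (-0.50) and from OMCD to IMCD (0.99), the calls that were lost without OMCD mouse 3. A pseudocount of 5 brought Ace from glomerulus to PTS1 to 0.99 and from DTL2 to DTL3 to 0.42, Agtr1a from PTS3 to DTL2 to 0.60 and from DTL2 to DTL3 to 0.47, Mas1 from PTS3 to DTL1 to -0.63 and from ATL to MTAL to 0.385, and Enpep from CCD to OMCD to -0.87. With a pseudocount of 0.1 further differences stayed above 1 but missed the adjusted p: Ace from PTS2 to PTS3 (1.62, adjusted p = 0.09), Agtr1a from PTS3 to DTL2 (1.33, adjusted p = 0.205) and from DTL2 to DTL3 (2.22, adjusted p = 0.0934), and Mme from PTS3 to DTL2 (-1.33, adjusted p = 0.0733) and from MTAL to CTAL (-1.51, adjusted p = 0.146).

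**Figure D4:**
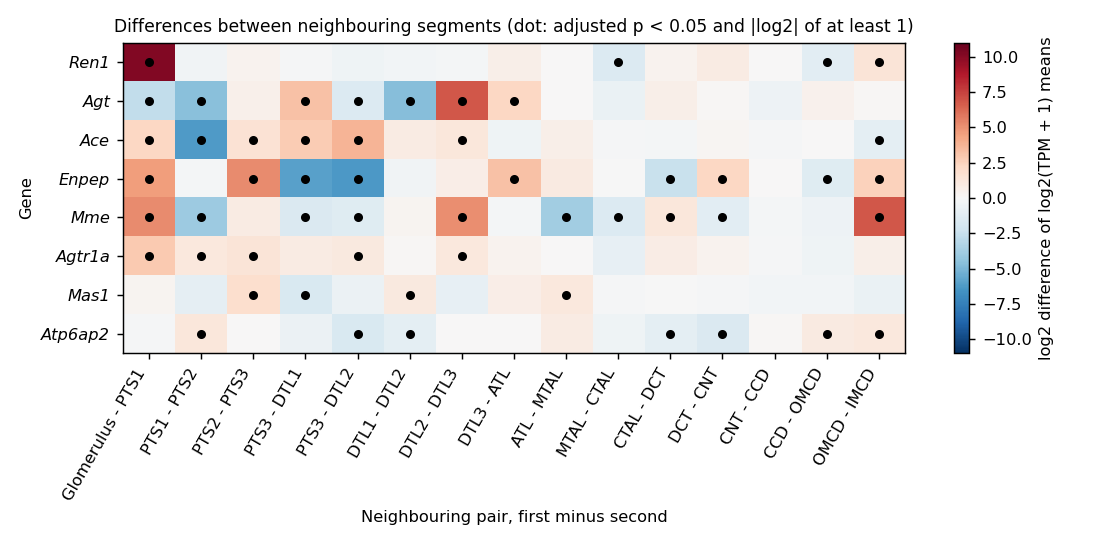
Log2 differences of the 8 tested members between neighbouring groups, first minus second (colour), with a dot where the adjusted p was under 0.05 and the difference at least 1. Dots fill 53 of the 120 cells, with 0 between CNT and CCD, and the strongest colours are Ren1 from glomerulus to PTS1 (10.2), Mme from OMCD to IMCD (6.87) and Agt from DTL2 to DTL3 (6.85).

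The other genes that make, trim or bind angiotensins, a list of 15, were read in the same way. Of these, 11 passed the filter and all 11 differed among the groups, as 93.9% of tested genes did, while the receptor Agtr2 and the mast cell proteases Cma1, Cpa3 and Mcpt4 did not pass. In the proximal tubule against the other segments, 2 of 11 were called higher (the aminopeptidase Anpep by 2.67 and the receptor-associated protein Agtrap by 1.005) and 2 lower (the kallikrein Klk1 at -4.36 and the aminopeptidase Lnpep at -1.64), with a list median of -0.25, where 4.02% of tested genes were called higher and 19.8% lower. Agtrap, at the edge of the threshold, came to between 0.988 and 0.999 on leaving out any of 9 single mice and to 0.93 with a pseudocount of 5. Ctsa, at 0.99, lay just under that edge. It came to between 1.003 and 1.028 without PTS1 mouse 2, PTS3 mouse 2, DTL1 mouse 3, ATL mouse 2 or IMCD mouse 3, and was then called higher. Lnpep came to -0.91 with that pseudocount, -0.96 after median ratio rescaling and -0.60 after quantile normalization. The split moved with the scaling, to 4 higher and 1 lower after median ratio rescaling, where Ctsa (1.91) and Prcp (1.29) were called higher, and to 3 higher and 1 lower after quantile normalization. In the glomerulus against the tubule, Lnpep (1.36) and the Mas-related receptor Mrgprd (1.05) were called higher and Anpep (-1.53) and Klk1 (-3.99) lower, with a list median of 0.20, where 31.6% of tested genes were called higher and 3.94% lower. Mrgprd was at 1.35 to 1.8 TPM in glomeruli, where odorant and vomeronasal receptor genes were also detected at 1 TPM, and their part was not tested. Lnpep and Mrgprd passed under neither rescaling, at 0.86 and 0.78 after the median ratio and 0.58 and 0.17 (adjusted p = 0.167 for Mrgprd) after quantile normalization, nor with a pseudocount of 5 (0.93 and 0.30), and Mrgprd came to 0.97 without glomerular mouse 1. Anpep came to -0.97 with that pseudocount, and Nln, an oligopeptidase, was called lower after quantile normalization (-1.09). With a pseudocount of 0.1, Ctsg, a granule protease, was called higher in the glomerulus (2.66) and Prep, an oligopeptidase, lower in the proximal segments (-1.035).

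Klk1, a kininogen-cleaving protease, reached the highest level of any gene on either list, 44775, 55556 and 46569 TPM in DCT, and marked that group, as 0.21% of genes did, over CTAL by 2.40 (SE 0.36, adjusted p = 1.09e-05). Reads shared with other kallikrein genes could not be separated here, and with a pseudocount of 0.1 the margin was again 2.40, with an SE of 0.73, and was no mark (adjusted p = 0.515). Anpep had its highest mean in DTL1, with 63.2, 85.4 and 29.9 TPM, above 15.7, 30.9 and 25.0 TPM on average in PTS1, PTS2 and PTS3. The lowest DTL1 mouse lay within the PTS2 range of 26.3 to 34.3 TPM. DTL1 was not a mark (margin over PTS2 0.81, SE 0.29, adjusted p = 0.0712). At the 15 boundaries 37 of the 165 tests of this list passed, against the same 19.8% of tests over all genes.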

How the data were processed

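Glomeruli and 14 tubule segments were profiled by SMARTer ultra-low input RNA-seq with Nextera XT libraries, per the labels' protocols. The authors' deposited values are TPM for 54532 genes, and the submitters' processing notes name STAR 2.5.4a and RSEM 1.3.0; the genome build is not given in the sources used here. Column totals ran from 999998.6 to 1000190.3 TPM over the 93 samples, and 0 pairs of columns were identical. Since TPM hold no information on reads, the depth is unknown and no counting interval is given. The deposited mean columns were not used, and 3 single-cell samples were not analysed here. A PTS2 column whose name fits none of the titles entered as an unnumbered mouse of that segment.

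Pieces of the same mouse number and segment were averaged as log2(TPM + 1), giving 53 mice, which the series' design counts as separate animals; the mean of a group in TPM is over these mice. Genes with at least 1 TPM in at least 3 mice were kept (33793). limma 3.58.1 in R 4.3.3 (eBayes with a trend, checked on simulated data) was fitted to all 15 groups, with 15 neighbouring pairs, proximal against other tubule, glomerulus against tubule and all pairs of groups as two-sided contrasts, and an intersection-union test for a gene that marks a group (one-sided). Benjamini-Hochberg adjustment ran over genes within each contrast, and a call needed an adjusted p under 0.05 and, outside the F-test, log2 means at least 1 apart. Alternatives were pseudocounts of 0.1 and 5, filters at 5 TPM or none, median ratio rescaling, quantile normalization, other treatment of pieces, a replicate block and leaving out each mouse. Named genes were the members, 15 other pathway genes (a further one is not reported here) and, for members with a group mean of at least 10 TPM, the 2 genes with the highest Pearson's r over the 53 mice among 11987 genes, passing over members, mitochondrial, ribosomal, Gm and Rik names. The members and lists were chosen with earlier results of these data known. Tables were made in pandas 2.3.3 and numpy 2.4.6 under Python 3.11.15, and plots in matplotlib 3.10.9.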

Additional observations from a re-analysis of the deposited data

Results flagged for a closer look

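Of the 29 groups of members with 4 or 5 mice that could be tested, 4 held a mouse far from the others by Dixon's ratio of gap to range, which chance alone gives in about 1 in 20 groups. That rate is for normally distributed values, and need not hold for low TPM with mice at 0. For Ren1 these were CTAL mouse 5, at 7.365 TPM against 0.39 to 2.39 TPM in the other 4, and OMCD mouse 3, at 33.78 TPM against 0.065 to 1.61 TPM in the other 3. For Agtr1a they were PTS2 mouse 4, at 25.15 TPM against 21.7 to 22.4 TPM, a narrow group, and ATL mouse 4, at 3.81 TPM where the other 3 mice were listed at 0. Beside mice tied at 0 the ratio is 1 for any value above 0, so for ATL mouse 4 it does not measure distance. ATL mouse 4 was also the lowest ATL mouse for Mme, at 0.18 TPM, and with mouse 6 it had more genes at 1 TPM or more than the other 2 ATL mice, 23465 and 24647 against 13949 and 13532.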

How the results depend on the processing

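Counts of called members stayed within 1.5 times of the reported ones under every alternative run: 7 to 9 differing among groups, 3 to 5 marking a group, 4 to 5 in the proximal contrast, 5 to 7 in the glomerular contrast, 40 to 54 at the neighbouring boundaries (53 as reported; 50 to 55 on leaving out each mouse). Over all pairs of groups, run with other pseudocounts and scalings alone, it was 352 to 510 of 840. Over all genes, boundary calls numbered 100287 as reported, 147819 with a pseudocount of 0.1 and 42842 with one of 5. They numbered 76104 after median ratio rescaling and 53858 after quantile normalization. Of the members' 53 boundary calls, 40 were shared with a pseudocount of 5, 44 with one of 0.1, 46 after median ratio rescaling and 40 after quantile normalization, with 0, 7, 3 and 5 calls gained. Median ratio rescaling gained Agtr1a, PTS3 minus DTL1 (2.06), Atp6ap2, glomerulus minus PTS1 (-1.41), and Mas1, PTS1 minus PTS2 (-1.03). Quantile normalization gained Agtr1a, PTS3 minus DTL1 (3.37), and Ren1, PTS1 minus PTS2 (-1.20). For Mas1 it gained glomerulus minus PTS1 (-1.29), PTS1 minus PTS2 (-1.20) and OMCD minus IMCD (-1.35). A pseudocount of 0.1 gained Agt from MTAL to CTAL (-2.61), CTAL to DCT (2.24) and CCD to OMCD (1.68). It also gained Agtr1a from OMCD to IMCD (2.31) and Mas1 from DTL3 to ATL (1.73). From ATL to MTAL it gained Ace (1.73) and Enpep (1.21). Agt, DTL2 minus PTS2, changed sign to -0.08 after median ratio rescaling (reported 0.99), and was called in neither run. Among single-gene results called as reported or under the alternative, the direction reversed in 2, both of Mas1. Under quantile normalization the scarce Mas1, glomerulus minus PTS1, came to -1.29 (reported 0.30, not called) and Mas1, PTS3 minus DTL1, to 0.62 (reported -1.69); the cause was not tested. With the mouse number as a replicate block, 52 boundary tests passed: Atp6ap2, CTAL minus DCT, came to -0.99, under the threshold of 1, and Mas1, ATL minus MTAL, to 0.74 (adjusted p = 0.0648), while Mas1, DTL3 minus ATL, was called at 1.16. The numbers do not pair animals, since the design counts a mouse for each number and segment, and the correlation of deviations had a median of 0.0001847 over 290 pairs with the same number and 0.0003665 over 968 pairs with other numbers. Without ATL mice 4 and 6, which had many more genes at 1 TPM or more than mice 2 and 3, the boundary count was 54, and Mme was then lower in DTL3 than in ATL (-1.15, adjusted p = 0.00177); without DTL1 it was 45 of fewer tests. These settings were chosen after seeing the data. All 135 group means moved by less than 1 SD when pieces were taken as separate values, and 3 of the 14 genes named for likeness were also chosen by Spearman's rho. TPM of low genes carry an unknown counting error, so differences of Ren1, Mas1 and Ace below a few TPM rest on the spread between mice alone.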

Other observations

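Pieces cut from the same mouse and segment were compared where the member averaged at least 10 TPM in that mouse. There the highest piece exceeded the lowest by a median of 1.08 times for Atp6ap2 (36 mice), 1.14 for Mme (30 mice), 1.15 for Enpep (19 mice), 1.14 for Agt (12 mice), 1.18 for Ace (6 mice) and 1.03 for Agtr1a (8 mice), and by at most 1.81 times. Below that level the spread was not summarised: some pieces lay several-fold apart, as for Agtr1a in DTL2 mouse 2, at 6.42 and 0.76 TPM, Ace in DTL2 mouse 1, at 0.97 and 5.12 TPM, and Enpep in MTAL mouse 1, at 1.29 and 4.25 TPM, and others did not, as for Enpep in CNT mouse 2, at 3.68 and 3.67 TPM. For Ren1 at 10 TPM or more the median was 2.42 over 4 mice and the largest ratio 168, in OMCD mouse 3. The 6 glomerular pieces had 723.6, 1129.4, 1822.7, 555.3, 2054.3 and 1369.4 TPM of Ren1, a range wider than that of the 3 mouse means.

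Macula densa genes, which mark the plaque of tubule cells that lies against the renin cells, were low in the limb that holds it: Nos1, Pappa2 and Ptgs2 together reached 0.015 to 0.985 TPM in CTAL mice. The same sum was 4.5 to 5.7 TPM in glomeruli, 2.63 to 7.07 TPM in DTL1, 2.53 to 3.13 TPM in DTL3, 0.01 to 4.61 TPM in ATL and at most 3.305 TPM in the other groups. Odorant and vomeronasal receptor genes at 1 TPM or more numbered 372 to 840 in glomeruli, 704 to 861 in DTL1 and 466 to 517 in DTL3. They numbered 17 to 659 in ATL and 1 to 5 in CTAL. The part of such low-level detection in the macula densa sums was not tested. Of the other proteases of the pathway, Ctsa, Lnpep, Nln, Prcp, Prep and Thop1 were at 1 TPM or more in all 53 mice, and among them Ctsa, a carboxypeptidase of lysosomes, was at 110 to 625 TPM and Prcp, a carboxypeptidase that cuts angiotensin II, at 5.24 to 34.5 TPM across the 15 group means.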
